A study of Mus musculus with 8 samples.

Results

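The nuclear-encoded subunits of the mitochondrial respiratory chain were followed in pooled neuro-intermediate lobes (NIL) of the mouse pituitary. Genes were picked by a naming rule, as the numbered Nduf subunits of the a, b, c, s and v series, the Sdh genes a to d, the 8 Uqcr genes and the numbered Cox4 to Cox8 genes, with pseudogenes left out. The set itself was chosen with earlier results of these data known. This gave 63 genes of 48526 in the count table, with 36 in complex I, 4 in complex II, 8 in complex III and 15 in complex IV. Ndufa4 is counted here under complex I after its name, although it is known today as a subunit of complex IV. Cox4i1, Cyc1, Ndufab1 and some others fall outside the naming rule and are given with the related pathways.

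RNA-seq had been run on 8 libraries in 4 groups of 2. The WT group had no transgene. The other groups carried POMC_ACreb3l2, POMC_AXBP1, or both transgenes together (ACreb3l2/AXBP1), all in the C57B6 strain. ACreb3l2 and AXBP1 are dominant negative proteins in which an acidic stretch replaces the DNA-binding region of the bZIP transcription factor Creb3l2 or XBP1, so that the partner they dimerize with cannot bind DNA. Per the study's methods, the rat POMC promoter drives each transgene in the POMC cells of the pituitary, results are shown for 1 mouse line per transgene, and each library is a pool of 5 lobes from males of 3 months. No source says that the 2 pools of a group came from separate litters or days, so p-values measure the spread between these pools. The cells are labelled melanotropes, but the lobe was dissected whole.

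The respiratory chain moves electrons from NADH through complex I, or from succinate through complex II, to ubiquinone, then through complex III to cytochrome c and through complex IV to oxygen. Complexes I, III and IV pump protons, and ATP synthase uses the resulting gradient. Apart from complex II, each complex joins subunits encoded in the mitochondrial genome to the nuclear ones measured here. Melanotropes are secretory cells that make and process the hormone precursor POMC, which takes a large part of their transcripts.

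Total counts ran from 28256086 to 37988912 per library. Pomc took between 6.91% and 14.6% of them, and the 63 genes together between 0.491% (AXBP1 replicate 2) and 0.524% (ACreb3l2/AXBP1 replicate 1; 95% Wilson intervals of 0.4882 to 0.4933% and of 0.522 to 0.527%, counting error only). The 37 mitochondrial genes listed in the count table, 13 of them protein-coding, were at 0 in every library, so that the mitochondrially encoded subunits could not be set beside the nuclear ones. As to the genes aimed at, Creb3l2 read 28440 ± 344 normalised counts in WT, 26990 ± 309 with ACreb3l2, 20830 ± 2830 with AXBP1 and 17620 ± 5060 with both (SD, n = 2). With both transgenes it passed the test (log2 change -0.69, edgeR adjusted p = 0.0428), and with 1 it did not. Xbp1 read 12660 ± 1100, 9180 ± 35.6, 13150 ± 991 and 15250 ± 3380 in the same order, without passing it. Per the study's methods, the constructs hold the coding sequence of each factor from the leucine zipper on, so that transgene reads could add to these counts. No such gain was called. Creb3l2 had log2 changes of -0.075 with ACreb3l2 and -0.69 with both. Xbp1 had 0.055 with AXBP1 and 0.27 with both, the last a higher estimate with a wide spread (edgeR adjusted p = 0.227). These counts alone thus do not show the transgenes. The study chose its lines for a high level of transgene over endogenous mRNA, measured by RT-qPCR, and the groups below are named as labelled.

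Most subunits were abundant in WT lobes. Of the 63 genes 59 passed the expression filter (a mean above 20 normalised counts), and 52 of these lay in the top 10% of the 15580 tested genes by FPKM, fragments per kilobase of transcript corrected for sequencing depth. Their median was 101 FPKM, against 8.09 FPKM over all tested genes. Within complex I the levels ran from 209 ± 11.3 FPKM (SD, n = 2) for Ndufa1, an accessory subunit of the membrane arm, to 20.3 ± 1.18 for Ndufa11, also of the membrane arm, with a median of 99.5 FPKM. The 4 complex II genes lay close together. Sdha, which encodes the flavoprotein that oxidizes succinate, stood at 119 ± 0.0304 FPKM, the iron-sulfur subunit gene Sdhb at 92.1 ± 5.87, and the membrane anchor genes Sdhc and Sdhd at 87.9 ± 3.51 and 61.3 ± 0.797.

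Complex III had a wider range. Uqcrh, the hinge subunit next to cytochrome c1, was highest with 391 ± 10.8 FPKM (SD, n = 2), and Uqcrq, a small subunit near the ubiquinone pocket, was lowest with 32.2 ± 3.78 FPKM. In complex IV, Cox8a headed the whole set with 478 ± 3.17 FPKM. FPKM values depend on the gene model used to count length, and the release behind the table is not stated.

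**Figure D1:**
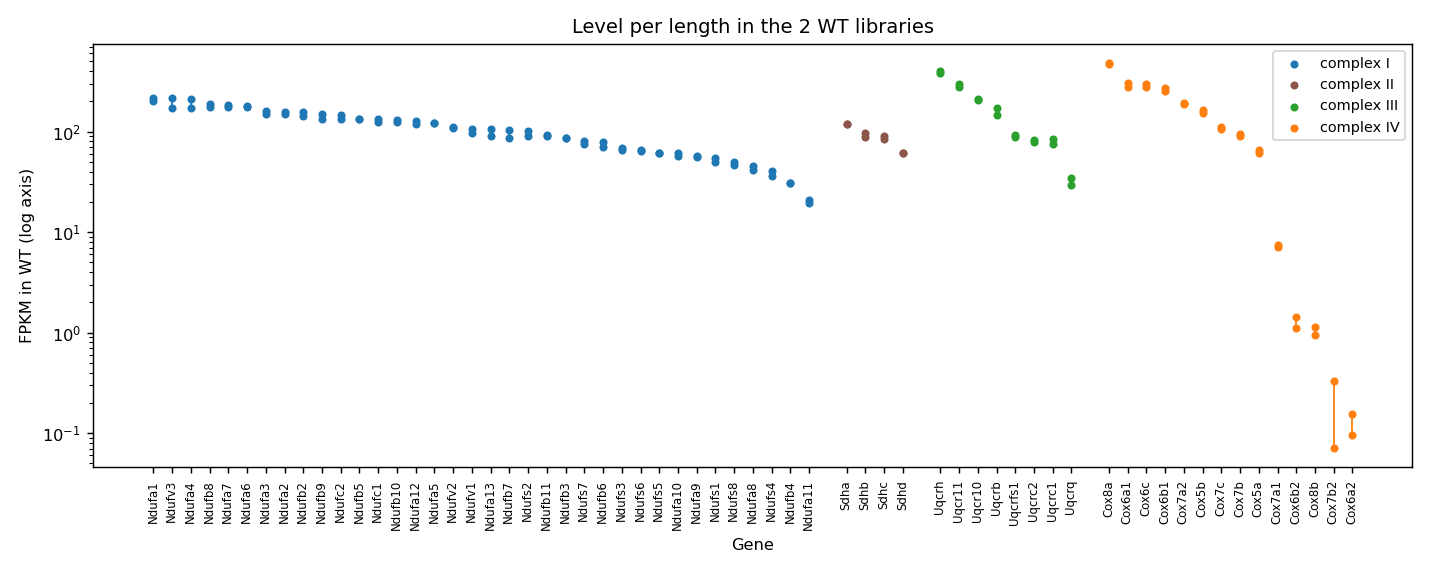
Level of each gene in FPKM (log axis) in the 2 WT libraries, 1 point per library joined by a line, with genes ordered by level within complexes I to IV. Cox8c, listed at 0, is not drawn, and 5 complex IV genes (Cox7a1, Cox6b2, Cox8b, Cox7b2 and Cox6a2) sit at 7.30 FPKM or less, far below the rest.

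The complex IV subunits that exist as tissue isoforms were read almost entirely from the ubiquitous gene of each pair. Cox6a1, the form found outside muscle, stood at 291 ± 21.8 FPKM in WT (SD, n = 2), while its heart and skeletal muscle partner Cox6a2 was at 0.127 ± 0.0421 FPKM with 0 to 6 raw counts in any library. Cox8a was accompanied by 1.05 ± 0.144 FPKM of the muscle form Cox8b, with 4 to 14 raw counts per library. The testis form Cox8c had 0 counts in all 8 libraries. Cox6b1 stood at 265 ± 13.9 FPKM and its testis partner Cox6b2 at 1.27 ± 0.239. Cox7a2 stood at 190 ± 0.712 FPKM and Cox7a1, the form of heart, skeletal muscle and brown fat, at 7.30 ± 0.207. Cox7b and Cox7c, small membrane subunits of complex IV, reached 92.9 ± 2.86 and 108 ± 3.24 FPKM, and Cox7b2, a testis form of Cox7b, had 0 to 5 raw counts. Cox6a2, Cox7b2, Cox8b and Cox8c are the 4 genes that did not pass the filter, and they were not tested.

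Against WT, transcripts of the respiratory chain were slightly lower in all 3 transgenic groups under TMM scaling, which sets most genes level between libraries, by amounts that few single genes could carry past the test. The comparison asks what blocking each factor, or both, does to these genes in the lobe. In ACreb3l2 the 59 tested genes had a median log2 change of -0.11 (52 lower, 7 higher), beside 0.01 for all 15580 tested genes, 48.2% of which were lower. In AXBP1 it was -0.14 (56 lower, 3 higher), beside 0.00 for all genes with 49.7% lower. In ACreb3l2/AXBP1 it was -0.17 (54 lower, 5 higher), beside 0.01 for all genes with 48.3% lower. These medians rest on the scaling. With library size alone they were -0.036, -0.078 and -0.009, with 38, 47 and 33 genes lower, and the median of all genes moved to 0.08, 0.06 and 0.17. They also moved with single libraries. Without WT replicate 2 the medians were -0.06 in ACreb3l2 and -0.10 in AXBP1, and without WT replicate 1 they were -0.18 and -0.20. In ACreb3l2/AXBP1 the median was -0.10 without its replicate 2 and -0.25 without its replicate 1. Summed over the 63 genes, the WT group held 177367 ± 8680 normalised counts, the ACreb3l2 group 165889 ± 571, the AXBP1 group 162671 ± 607 and the ACreb3l2/AXBP1 group 158798 ± 9630 (SD, n = 2). The transgenic sums came to 93.5%, 91.7% and 89.5% of WT. As a share of all counts, with no TMM factors, the 63 genes took 0.52% and 0.515% in WT and 0.524% and 0.512% in ACreb3l2/AXBP1, which overlap, with 0.509% and 0.513% in ACreb3l2 and 0.501% and 0.491% in AXBP1. Such shares also depend on Pomc, which took 10.5% and 14.6% of counts in WT and 8.76% and 6.91% in ACreb3l2/AXBP1. A lower Pomc share raises the share of all other genes, so the overlap alone does not show that the subunit genes were level. On the FPKM scale the order was another, since the sums came to 94%, 80.9% and 88.7% of WT and AXBP1 was lowest. With limma on log2(FPKM + 1) the median change in AXBP1 was -0.30 for the subunit genes and -0.13 for all genes. With 2 libraries against 2 an exact two-sided permutation test of such a sum cannot go below p = 0.333, and none was run.

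With edgeR and an adjusted p under 0.05 (Benjamini-Hochberg over all tested genes), no subunit gene was called in ACreb3l2, where 3.04% of all tested genes were called. At an unadjusted p under 0.05 there were 7 (11.9%), all lower, beside 16.8% of all tested genes in either direction and 9.99% lower. DESeq2 and limma on FPKM called 0, against 5.15% (of genes given an adjusted p by DESeq2, as for its other shares) and 1.73% of all genes. No subunit gene was called in AXBP1 either, where edgeR called 0% of tested genes. There 13 subunit genes (22%) had an unadjusted p under 0.05, 12 of them lower (20.3%), beside 9.97% of all tested genes in either direction and 5.68% lower. DESeq2 and limma called 0, against 0.562% and 0.0578% of all genes. In ACreb3l2/AXBP1 edgeR called 5 of the 59, all lower, where 10.1% of all tested genes were called in either direction and 6.99% were called lower. The share of subunit genes called was thus close to that of all genes. DESeq2 called 7, where it called 14.1% of all genes, and limma on FPKM 1, where it called 7.11%. An unadjusted p under 0.05 was found for 20 (33.9%), all lower, beside 29.7% of all tested genes in either direction and 16.3% lower.

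Counting genes whose libraries did not overlap gave another view of the same values. Both libraries lay below both WT libraries for 37 of the 59 genes in ACreb3l2, where this held for 23.2% of all tested genes. It held for 41 genes in AXBP1 (23.8% of all genes) and for 39 in ACreb3l2/AXBP1 (28.7% of all genes).

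**Figure D2:**
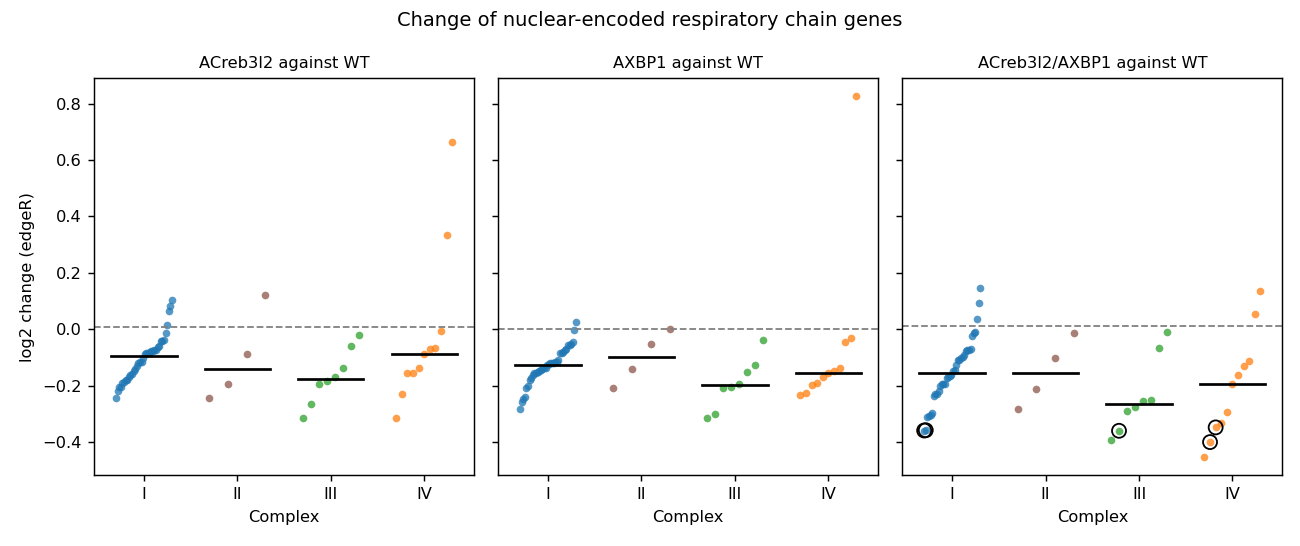
log2 change of each tested gene against WT (edgeR) by complex in the 3 transgenic groups, with 1 point per gene, a black bar at the median of each complex, a dashed line at the median of all tested genes and black rings around the 5 genes called. Every median of a complex lies below the dashed line, at -0.26 for complex III in ACreb3l2/AXBP1 and at -0.09 for complexes I and IV in ACreb3l2, and the point above 0.6 in the first and second panels is Cox6b2.

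The 5 genes that fell in ACreb3l2/AXBP1 belong to complexes I, III and IV. Ndufs3, a core subunit of the arm of complex I where electrons reach ubiquinone, read 2080 and 2259 normalised counts in the WT libraries. It gave 1915 and 1894 with ACreb3l2, 1862 and 1913 with AXBP1, and 1784 and 1602 with both transgenes. Both ACreb3l2/AXBP1 libraries lay below all 6 others. Its log2 change in ACreb3l2/AXBP1 was -0.36 (SE 0.0855, edgeR adjusted p = 0.0304). Ndufs6, a zinc-binding accessory subunit of complex I, read 1036 and 1128 in WT. It gave 920.2 and 909.3 with ACreb3l2, 919.2 and 861.4 with AXBP1, and 844.5 and 845.1 with both transgenes. The ACreb3l2/AXBP1 pair was again lowest. The change in ACreb3l2/AXBP1 was -0.36 (SE 0.0921, edgeR adjusted p = 0.0391).

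Uqcr10, a small subunit that sits beside cytochrome c1 in complex III, read 2331 and 2403 normalised counts in WT, then 1992 and 1951 with ACreb3l2, 1955 and 1858 with AXBP1, and 1937 and 1755 with both. All transgenic libraries lay below WT, and those of AXBP1 overlapped with the other 2 transgenic groups. The change in ACreb3l2/AXBP1 was -0.36 (SE 0.0818, edgeR adjusted p = 0.0257). Cox6a1 read 4431 and 5151 in WT, 4020 and 3686 with ACreb3l2, 4047 and 4154 with AXBP1, and 3811 and 3457 with both. Its WT libraries differed from each other by more than those of any transgenic group, and its ACreb3l2 and ACreb3l2/AXBP1 libraries overlapped. The change in ACreb3l2/AXBP1 was -0.40 (SE 0.097, edgeR adjusted p = 0.0322). Cox7c read 1642 and 1796 in WT, 1602 and 1482 with ACreb3l2, 1438 and 1486 with AXBP1, and 1433 and 1269 with both, so that the ACreb3l2/AXBP1 pair was lowest by a small margin. The change in ACreb3l2/AXBP1 was -0.35 (SE 0.0953, edgeR adjusted p = 0.0472). In the ACreb3l2 and AXBP1 comparisons with WT the 5 genes had log2 changes of -0.31 to -0.16 and of -0.31 to -0.20, without passing the test. Cox5a, a subunit on the matrix side of complex IV that was picked out after its value was seen, narrowly missed the threshold in ACreb3l2/AXBP1 (log2 change -0.33, SE 0.0929, edgeR adjusted p = 0.0502).

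**Figure D3:**
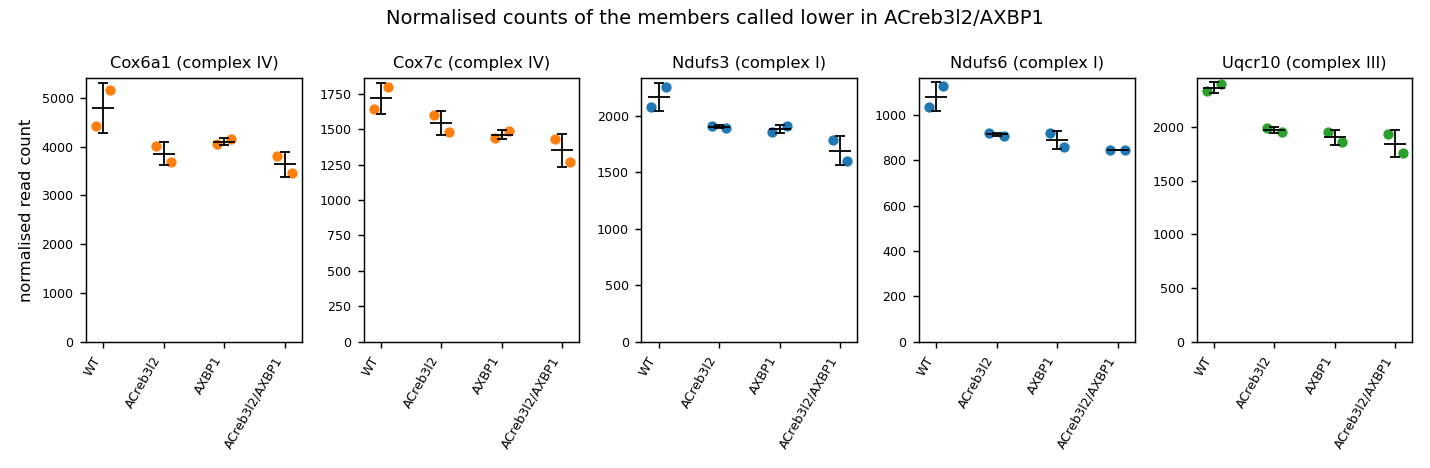
Normalised read counts (axes start at 0) of the 5 genes called lower in ACreb3l2/AXBP1, with 1 point per library, a bar at the mean of the 2 libraries of a group and whiskers of 1 SD. For each gene both ACreb3l2/AXBP1 points lie below both WT points.

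The 5 calls depended on which libraries were fitted, and were not kept in every fit without 1 library. In those fits the log2 change in ACreb3l2/AXBP1 ran from -0.44 to -0.29 for Ndufs3 and from -0.42 to -0.30 for Ndufs6. It ran from -0.43 to -0.30 for Uqcr10, from -0.50 to -0.29 for Cox6a1 and from -0.44 to -0.27 for Cox7c. Scaling mattered too. With library size alone in place of TMM factors the median of all tested genes in ACreb3l2/AXBP1 moved from 0.01 to 0.17 and that of the subunit genes from -0.17 to -0.01, so that the difference between the medians stayed at -0.18. No subunit gene was called then, where 1650 of all 15580 tested genes were. Of the 5 genes, Ndufs3 shares 39.7% of its 50-base stretches with transcripts of other genes, among them Kbtbd4 on the opposite strand and pseudogenes, Cox7c 27.9%, Cox6a1 12.3%, Ndufs6 8.33% and Uqcr10 0%. Reads from such stretches cannot be assigned with certainty.

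Promoters of the 5 genes, and of Cox7a1, which had the lowest log2 change of complex IV in ACreb3l2/AXBP1 whether called or not, are shown because these genes were among the lowest of their complexes. Each line holds the 250 bases before the first listed RefSeq start (GRCm38.p6), and 5 of the 6 windows reach into the gene as GENCODE M21 draws it. Capitals mark any match, on either strand, to ACGT (the core that bZIP factors such as Creb3l2 and XBP1 can bind), CCGGAAG (an ETS factor site), CCAAT, or the NRF1 letters GCGCATGCG or GCGCACGCG. No promoter was in the table for Sdhc and Uqcrq, the lowest of complexes II and III.
Ndufs3 (chr2:90904722-90904971, minus strand): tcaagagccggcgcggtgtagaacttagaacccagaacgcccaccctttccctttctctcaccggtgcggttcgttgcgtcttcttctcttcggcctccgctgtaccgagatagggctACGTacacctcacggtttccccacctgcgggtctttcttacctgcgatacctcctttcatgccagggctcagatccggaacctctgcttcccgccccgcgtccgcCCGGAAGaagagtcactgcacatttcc
Ndufs6 (chr13:73328483-73328732, minus strand): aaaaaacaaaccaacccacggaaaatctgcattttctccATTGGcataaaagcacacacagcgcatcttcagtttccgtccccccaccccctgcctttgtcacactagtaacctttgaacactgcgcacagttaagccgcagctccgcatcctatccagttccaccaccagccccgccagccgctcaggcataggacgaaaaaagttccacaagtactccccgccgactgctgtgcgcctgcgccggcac
Uqcr10 (chr11:4704345-4704594, minus strand): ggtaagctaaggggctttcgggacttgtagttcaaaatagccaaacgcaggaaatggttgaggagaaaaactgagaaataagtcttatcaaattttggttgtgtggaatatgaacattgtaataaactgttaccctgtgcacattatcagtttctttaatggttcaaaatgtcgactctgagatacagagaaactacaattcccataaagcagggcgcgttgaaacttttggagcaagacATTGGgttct
Cox6a1 (chr5:115348959-115349208, minus strand): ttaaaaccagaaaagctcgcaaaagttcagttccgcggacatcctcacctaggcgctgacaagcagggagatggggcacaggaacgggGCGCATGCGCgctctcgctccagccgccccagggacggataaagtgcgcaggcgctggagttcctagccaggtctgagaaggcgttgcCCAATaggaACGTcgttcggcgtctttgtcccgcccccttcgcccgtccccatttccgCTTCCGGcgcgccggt
Cox7c (chr13:86046796-86047045, minus strand): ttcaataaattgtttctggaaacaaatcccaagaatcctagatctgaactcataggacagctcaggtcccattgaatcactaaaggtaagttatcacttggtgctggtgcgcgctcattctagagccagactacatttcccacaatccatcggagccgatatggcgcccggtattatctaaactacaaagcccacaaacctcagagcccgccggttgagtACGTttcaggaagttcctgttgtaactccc
Cox7a1 (chr7:30183921-30184170, plus strand): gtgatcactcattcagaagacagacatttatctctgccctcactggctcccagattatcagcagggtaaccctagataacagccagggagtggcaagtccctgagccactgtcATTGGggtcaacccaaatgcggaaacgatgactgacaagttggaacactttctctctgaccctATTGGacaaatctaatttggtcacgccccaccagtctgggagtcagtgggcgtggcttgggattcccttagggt

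ACGT stood in the windows of Ndufs3, Cox6a1 and Cox7c, and not in those of Ndufs6, Uqcr10 and Cox7a1. Over the 52 subunit genes with a promoter in the table, 40.4% held ACGT, against 27% of all 27025 promoters of the same length, which are not limited to genes expressed here. By complex it was found in 9 of 32 genes of complex I (28.1%), 1 of 3 of complex II, 4 of 5 of complex III and 7 of 12 of complex IV. In complex I, with most of the genes, the share was thus near that of all promoters. The longer forms TGACGT and CCACGT, which contain ACGT, were found in 13.5% and 5.77%, against 6.56% and 6.9% of all. The NRF1 letters stood in 9.62% (2.88% of all), CCGGAAG in 15.4% (7.05% of all) and CCAAT in 40.4% (34.5% of all). NRF1 and the ETS factor GABP are known regulators of many respiratory chain genes. A match describes letters in this window and does not show binding.

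The 36 complex I genes had median log2 changes of -0.09 (ACreb3l2), -0.13 (AXBP1) and -0.15 (ACreb3l2/AXBP1), with 32, 35 and 33 genes lower. No complex I gene passed the test in the groups with only 1 transgene, and 2 did in ACreb3l2/AXBP1, Ndufs3 and Ndufs6. Ndufs6 was also the lowest of the complex in ACreb3l2 (-0.24, SE 0.092) and in AXBP1 (-0.28, SE 0.0923). At the upper end stood Ndufa12, an accessory subunit of the peripheral arm, in ACreb3l2 (0.10, SE 0.104), Ndufs1, the largest core subunit and a carrier of iron-sulfur clusters, in AXBP1 (0.03, SE 0.0888), and Ndufb2, a membrane arm subunit, in ACreb3l2/AXBP1 (0.15, SE 0.102). Ndufs1 read between 4730 and 5360 normalised counts over all 8 libraries, with every group overlapping WT, and its 95% interval in ACreb3l2/AXBP1 ran from -0.21 to 0.19. Ndufb2 went in opposite directions on the 2 scales. Its mean normalised count was above WT in ACreb3l2/AXBP1 (989.1 ± 29.2 against 892.6 ± 16.4), its FPKM was below (122 against 150 ± 8.81), and its annotated exons overlap those of Braf on the opposite strand. In the same order of groups Ndufa1 had log2 changes of -0.16, -0.14 and -0.23, and Ndufa11 -0.06, -0.14 and -0.17.

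The 4 genes of complex II, which is encoded in the nucleus alone and also serves the TCA cycle, did not move as one. Sdha read 12810 and 12750 normalised counts in WT, 13670 and 14140 with ACreb3l2, 12710 and 12910 with AXBP1, and 13030 and 12330 with both. Its ACreb3l2 libraries were the highest, with a log2 change of 0.12 (95% interval -0.06 to 0.30), and in AXBP1 and ACreb3l2/AXBP1 the values surrounded WT, with changes of 0.00 and -0.01. Sdhd read 2690 and 2841 in WT, 2355 and 2314 with ACreb3l2, 2674 and 2656 with AXBP1, and 2626 and 2531 with both. The ACreb3l2 pair was the lowest, at -0.24 against WT (SE 0.0753, edgeR adjusted p = 0.131). Sdhb had log2 changes of -0.19, -0.14 and -0.21 in ACreb3l2, AXBP1 and ACreb3l2/AXBP1, and its ACreb3l2/AXBP1 libraries stood apart from each other at 3516 and 2755 normalised counts, against 3403 and 3851 in WT. Without ACreb3l2/AXBP1 replicate 1 the change of Sdhb in ACreb3l2/AXBP1 was -0.40, and without replicate 2 it was -0.05. Sdhc had changes of -0.09, -0.21 and -0.28, and its AXBP1 libraries read 3914 and 3169. None of the 4 genes passed the test with all libraries, and the summed complex II counts were 23263 ± 611 in WT and 21758 ± 1350 in ACreb3l2/AXBP1 (SD, n = 2).

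Complex III had the lowest medians of the 4 complexes in all 3 groups, at -0.18 (ACreb3l2), -0.20 (AXBP1) and -0.26 (ACreb3l2/AXBP1), and all 8 of its genes were below 0 each time. Whether it differed from the other complexes was not tested. Its summed normalised counts were 28715 ± 1240 for WT, 25935 ± 60.8 for ACreb3l2, 25613 ± 39.9 for AXBP1 and 24862 ± 1540 for ACreb3l2/AXBP1 (SD, n = 2), which is 90.3%, 89.2% and 86.6% of WT. Uqcrh read 5886 and 6405 normalised counts in WT and between 5109 and 5570 in the 6 transgenic libraries, with changes of -0.20, -0.19 and -0.25. Uqcrq had the lowest estimates of the complex in ACreb3l2 (-0.32) and ACreb3l2/AXBP1 (-0.39), but it read only 352.6 and 427.5 counts in WT and 356 and 238.8 in ACreb3l2/AXBP1, so that the groups overlapped and the SE was 0.217. Uqcrc2, a core subunit of the matrix side, read between 4851 and 5303 in all libraries and had changes of -0.06, -0.04 and -0.01. Uqcrb, which binds near ubiquinone, had changes of -0.02, -0.13 and -0.07 and shares 43.4% of its 50-base stretches with other genes. Only Uqcr10 passed the test, in ACreb3l2/AXBP1.

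Among the 11 tested genes of complex IV the medians were -0.09 (ACreb3l2), -0.15 (AXBP1) and -0.19 (ACreb3l2/AXBP1), with 9, 10 and 9 genes lower, and 2 passed the test, Cox6a1 and Cox7c in ACreb3l2/AXBP1. The ubiquitous isoforms Cox6b1 (-0.14, -0.15 and -0.16), Cox7a2 (-0.16, -0.15 and -0.11), Cox7b (-0.07, -0.17 and -0.13) and Cox8a (-0.07, -0.14 and -0.19) were lower without passing it. The minor isoforms had wide errors. Cox6b2 read 18.46 and 17.45 normalised counts in WT, 33.54 and 22.85 with ACreb3l2, 32.62 and 31.18 with AXBP1, and 23.73 and 15.98 with both. Its ACreb3l2 and AXBP1 libraries lay above WT, with log2 changes of 0.66 (95% interval -0.09 to 1.42) and 0.82 (0.07 to 1.58), and edgeR adjusted p of 0.365 and 0.495. Cox7a1 read 67.99 and 67.62 in WT, 105.8 and 63.97 with ACreb3l2, 69.19 and 63.51 with AXBP1, and 49.45 and 49.71 with both. The ACreb3l2/AXBP1 pair was the lowest of the 8, at -0.45 (95% interval -1.05 to 0.15, edgeR adjusted p = 0.29). Markers of striated muscle and brown fat, which use Cox7a1, were also looked at. Summed over 10 striated muscle markers the libraries held 17320 and 20059 normalised counts in WT and 11573 and 5696 in ACreb3l2/AXBP1, with 9501 to 12224 in the other groups, most of it from Ttn. Over 5 brown fat markers they held 3720 and 3867 in WT and 1693 and 1153 in ACreb3l2/AXBP1, with 1543 to 3790 in the other groups, nearly all from Cidea. In ACreb3l2/AXBP1 Ttn had a log2 change of -1.14 (edgeR adjusted p = 0.0836) and Cidea of -1.42 (edgeR adjusted p = 0.0579). The other 3 muscle markers tested were closer to WT there, with log2 changes of 0.24 for Acta1, -0.017 for Mb and -0.17 for Myh4, and the median of the 4 was -0.09. Only 4 of the muscle markers and 1 brown fat marker, Cidea, passed the filter and were tested. None of these 5 was called by edgeR in a comparison with WT, 1 muscle marker in ACreb3l2, Cidea in AXBP1 and 1 of each list in ACreb3l2/AXBP1 had an unadjusted p under 0.05, and DESeq2 called 1 of each list in ACreb3l2/AXBP1. No marker was at 0 in all libraries, and the more restricted markers were low, with Ckm at 1.142 to 11.87 and Ucp1 at 0 to 2.309 normalised counts per library. The part of these cells in the Cox7a1 values was not tested.

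In WT and in ACreb3l2/AXBP1 the 2 libraries of a group differed by about as much as the groups did. The median of the 59 genes, relative to the WT mean on the log2 scale, was -0.05 and 0.05 in the WT libraries, -0.11 and -0.13 with ACreb3l2, -0.13 in both AXBP1 libraries, and -0.09 and -0.24 with both transgenes. WT and transgenic libraries did not overlap, but WT replicate 1 and ACreb3l2/AXBP1 replicate 1 lay closer to each other than to the second library of their own group. WT replicate 1 was above replicate 2 for 12 of the 59 genes, with 49.5% of all tested genes above. ACreb3l2/AXBP1 replicate 1 was above replicate 2 for 49, with 50.6% of all genes above. In ACreb3l2 and AXBP1 the counts were 34 and 23. Single genes were nonetheless read with little scatter, since the median biological coefficient of variation was 0.0755 for subunit genes and 0.095 for all tested genes, and 55 of the 59 lay below the latter.

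**Figure D4:**
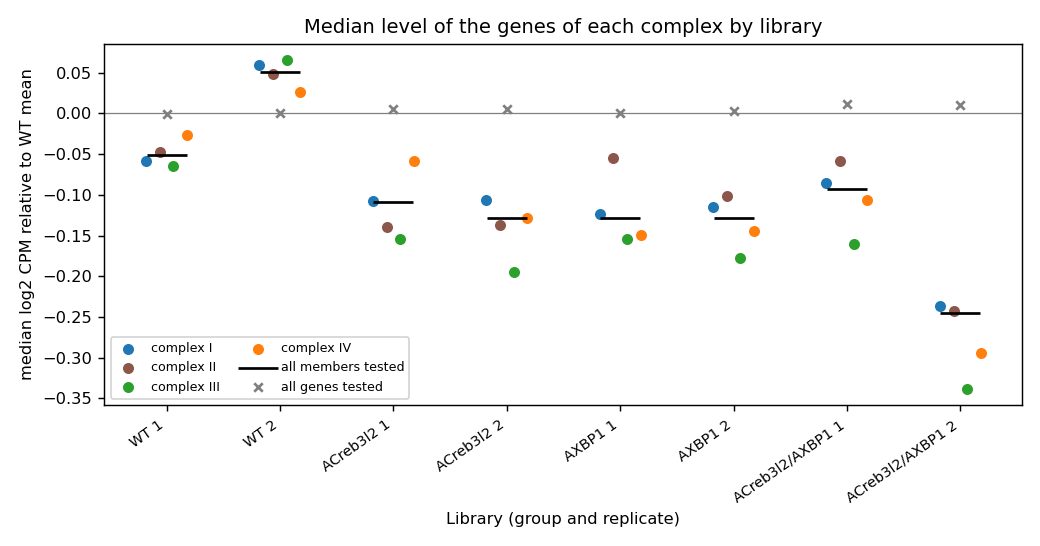
Median log2 CPM of the tested genes of each complex (coloured points), of all 59 genes (black bars) and of all tested genes (grey crosses) in each library, relative to the WT mean. ACreb3l2/AXBP1 replicate 2 is lowest at -0.24 and WT replicate 2 highest at 0.05, with the 4 complexes moving together in both.

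Cell markers moved with the same libraries. Summed over a list of 7 melanotrope markers (Pomc, Pcsk2, Tbx19, Pax7, Drd2, Scg2 and Pcsk1n), the libraries held 3728252 and 5521561 normalised counts in WT, 3683220 to 4109506 with ACreb3l2, 3409378 to 3994053 with AXBP1, and 3008007 and 2220913 with both, most of it from Pomc. The library with more melanotrope transcripts also had the higher subunit median in WT and in ACreb3l2/AXBP1. In ACreb3l2/AXBP1 all 7 were lower than WT (median log2 change -0.57) and 2 of them, Tbx19 and Scg2, passed the test. In ACreb3l2 and AXBP1 6 of 7 were lower (medians -0.15 and -0.24) with none called by edgeR, 1 and 2 at an unadjusted p under 0.05, and 0 and 1 called by DESeq2. Summed over 7 pituicyte and astroglia markers the counts ran the other way, at 34457 and 26615 in WT and 35252 and 42886 in ACreb3l2/AXBP1, and Aqp4 was called higher there. The ACreb3l2 libraries ran from 34466 to 39924 and the AXBP1 libraries from 33283 to 38372. Estimates were above 0 for 7 of the 7 glial markers in ACreb3l2 (median log2 change 0.38), 6 in AXBP1 (0.20) and 7 in ACreb3l2/AXBP1 (0.42). In the first and second of these groups edgeR called none, with 2 and 1 at an unadjusted p under 0.05, and DESeq2 called 1 and 0. Of 6 endothelial, 6 macrophage, 6 fibroblast and pericyte, 7 anterior lobe and 5 erythroid markers none was called in any of the 3 comparisons with WT by edgeR. At an unadjusted p under 0.05 there were 2 endothelial markers in ACreb3l2/AXBP1, 2 fibroblast and pericyte markers in AXBP1, and 1 and 2 anterior lobe markers in ACreb3l2 and AXBP1, and DESeq2 called 1 endothelial marker in ACreb3l2/AXBP1. Endothelial sums were 4948 and 4008 in WT and 5663 and 6666 in ACreb3l2/AXBP1, and all 6 of these markers had estimates above 0 in AXBP1 (median log2 change 0.42) and in ACreb3l2/AXBP1 (0.51). Anterior lobe sums were 155669 and 230916 in WT, 164548 and 125255 with ACreb3l2, 80307 and 84302 with AXBP1, and 207021 and 106631 with both, so that in WT and in ACreb3l2/AXBP1 the library with more of them was again the one with the higher subunit median. No marker of any of these lists was at 0 in all libraries. In bulk lobes, fewer melanotropes and less RNA per melanotrope cannot be told apart, and the part of cell composition in the subunit values was not tested.

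The subunit genes are short, and short transcripts in general were lower in the transgenic groups. Of the 59 genes, 34 have a longest coding transcript under 1000 bases. Over all 661 tested coding genes of such length the median log2 change was -0.09 (ACreb3l2), -0.13 (AXBP1) and -0.12 (ACreb3l2/AXBP1), with 70.7%, 80.2% and 69% of them lower, and the 34 subunit genes among them had medians of -0.13, -0.15 and -0.18. Over the 13368 longer coding genes the medians were 0.02, 0.01 and 0.01. The 25 longer subunit genes had medians of -0.09, -0.12 and -0.14, but 19 of them are shorter than 2000 bases. At 1000 to 1500 bases the 11 subunit genes had medians of -0.08, -0.12 and -0.13, and all 1147 coding genes -0.05, -0.07 and -0.08. At 1500 to 2000 bases the 8 subunit genes had -0.13, -0.12 and -0.22, and all 1457 coding genes -0.04, -0.05 and -0.08. Across the 59 genes Spearman's rho between change and length was 0.191, 0.235 and 0.188, and across 14029 coding genes 0.184, 0.27 and 0.199, as a description of genes that share libraries and are no independent replicates. The part of transcript length in the subunit values was not tested.

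**Figure D5:**
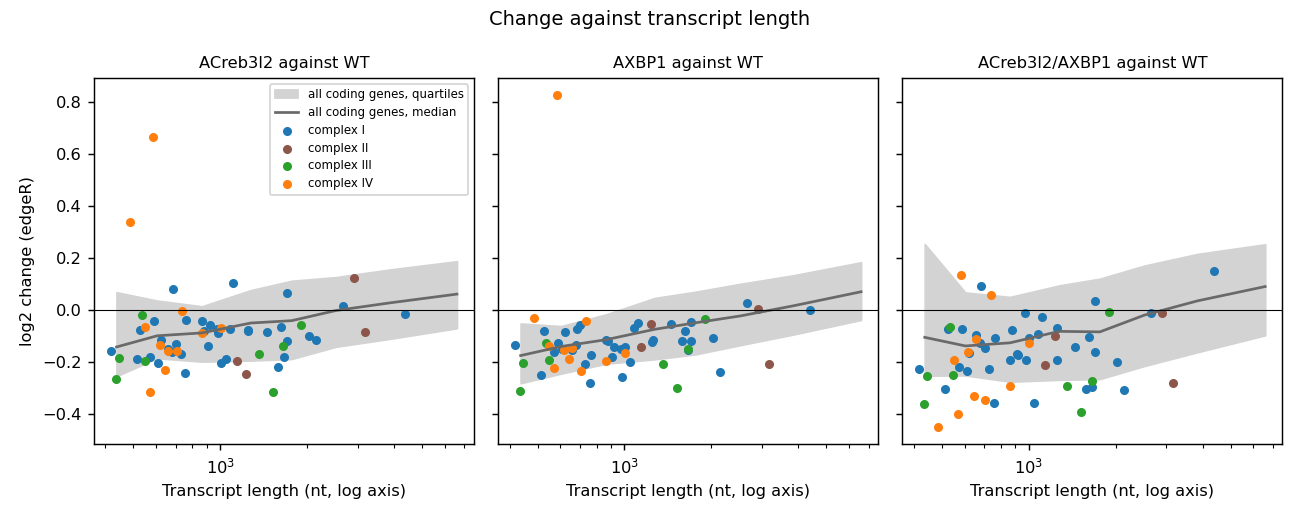
log2 change against WT (edgeR) of the 59 subunit genes, coloured by complex, by length of the longest coding transcript in bases (log axis), over the median (grey line) and quartiles (shaded) of all tested coding genes in bins of length. For genes under 500 bases the grey line lies at -0.14 (ACreb3l2), -0.17 (AXBP1) and -0.10 (ACreb3l2/AXBP1), where 4 of the subunit genes lie.

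Between the transgenic groups no subunit gene was called. In ACreb3l2 against AXBP1 the median log2 difference was 0.02 (0.719% of all tested genes called), in ACreb3l2/AXBP1 against ACreb3l2 it was -0.06 (0% called), and in ACreb3l2/AXBP1 against AXBP1 it was -0.05 (0.623% called). At an unadjusted p under 0.05 edgeR gave 1, 1 and 0 subunit genes, where 9.49%, 7.14% and 11.1% of all genes were found. DESeq2 and limma called 0 each time, against 1.7%, 0.335% and 1.96% of all genes for DESeq2 and 0.193%, 0% and 0.205% for limma. The gene found by edgeR in the first was Sdhd, lower in ACreb3l2 than in AXBP1 (-0.19, 95% interval -0.36 to -0.02, edgeR adjusted p = 0.436), and in the second Cox7a1, lower in ACreb3l2/AXBP1 than in ACreb3l2 (-0.79, 95% interval -1.38 to -0.19, edgeR adjusted p = 0.688), both chosen after their values were seen. With limma on log2(FPKM + 1) the medians were 0.21, -0.10 and 0.11, so that the last changed sign and the first was larger. The medians of all genes moved too, to 0.15, -0.05 and 0.10, which left differences of 0.062, -0.048 and 0.015 between subunit genes and all genes. The median SE per gene was 0.0923 to 0.0924 with edgeR, about that of the comparisons with WT (0.092 to 0.0923). Without ACreb3l2/AXBP1 replicate 2 the median in ACreb3l2/AXBP1 against AXBP1 was 0.03, and without replicate 1 it was -0.11.

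Genes that build, feed or regulate the chain showed a few larger changes than the subunits. Their counts stand beside the shares of all tested genes given above, which were 3.04%, 0% and 10.1% called by edgeR in ACreb3l2, AXBP1 and ACreb3l2/AXBP1, 16.8%, 9.97% and 29.7% at an unadjusted p under 0.05, and 5.15%, 0.562% and 14.1% called by DESeq2. All 16 listed genes of ATP synthase, which turns the proton gradient into ATP, were lower than WT in ACreb3l2 (median -0.13) and in AXBP1 (-0.14), with none called by edgeR and 4 and 3 at an unadjusted p under 0.05. DESeq2 called 2 and 1 of them. In ACreb3l2/AXBP1 15 of 16 were lower (median -0.18) and 3 fell, Atp5d (-0.88, SE 0.15), Atp5g1 (-0.64, SE 0.129) and Atp5o (-0.36, SE 0.0968), with edgeR adjusted p of 0.0108, 0.0175 and 0.0437, while 6 had an unadjusted p under 0.05 and DESeq2 called 5. Of the respiratory genes outside the naming rule, 7 were tested and 1 was called by edgeR, in ACreb3l2/AXBP1, Cycs, the somatic cytochrome c that carries electrons from complex III to IV. It read 1453 ± 98.5 normalised counts in WT and 1065 ± 149 in ACreb3l2/AXBP1 (SD, n = 2), a change of -0.45 (SE 0.109, edgeR adjusted p = 0.0322). Over the 7 tested genes the median log2 change was -0.300 with ACreb3l2, -0.035 with AXBP1 and -0.003 with both transgenes. In the same order 6, 6 and 5 of them were lower than WT. From WT to both transgenes Cox4i1 went from 9910 ± 671 to 9402 ± 627, and Cyc1 from 1478 ± 250 to 1128 ± 186. Ndufab1 read 479.6 ± 44.3 and 479.4 ± 84.2, and Cox7a2l 4566 ± 208 and 5220 ± 785.

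Of 13 tested assembly factors of complex I, Ecsit (-0.53) and Foxred1 (-0.43) fell in ACreb3l2/AXBP1, and of 10 of complexes II and III Ttc19 (-0.45) did. Of 20 for complex IV, Cox18, which inserts a mitochondrially encoded subunit, fell (-0.62, SE 0.129, edgeR adjusted p = 0.0189), and Cox17, a copper chaperone, rose (0.93, SE 0.246, edgeR adjusted p = 0.0428). Cox17 was read from only 46.16 ± 2.04 normalised counts in WT and 87.73 ± 17.8 in ACreb3l2/AXBP1, its FPKM were 135 ± 9.15 and 139 ± 14.4, and DESeq2 did not call it. With only 1 transgene edgeR called none of the assembly factors, with 3, 1 and 3 of these lists at an unadjusted p under 0.05 in ACreb3l2 and 1, 0 and 1 in AXBP1, and DESeq2 called 0. In ACreb3l2, AXBP1 and ACreb3l2/AXBP1 the factors of complex I had median log2 changes of -0.043, -0.132 and -0.072. Those of complexes II and III had -0.085, -0.145 and -0.126, and those of complex IV -0.040, -0.006 and -0.031. None of the 22 genes of pyruvate entry and the TCA cycle was called by edgeR in any comparison with WT, with 3, 1 and 9 at an unadjusted p under 0.05 in ACreb3l2, AXBP1 and ACreb3l2/AXBP1, and 0, 0 and 1 called by DESeq2. Lower than WT were 20, 17 and 18 of them, with median log2 changes of -0.12, -0.07 and -0.15, so that a small shift was not particular to the subunit genes. Pdk1, a kinase that holds pyruvate back from the TCA cycle, had log2 changes of -0.13, 0.10 and -0.05 in these groups.

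Of 17 glycolysis genes 6 fell in ACreb3l2/AXBP1, where 6.99% of all tested genes were called lower, and the median of the list was -0.33. There 10 had an unadjusted p under 0.05 and DESeq2 called 8. They were led by the hexokinase Hk2 (-1.16, SE 0.221), Gapdh (-0.65, SE 0.153) and the enolase Eno2 (-0.60, SE 0.157), with edgeR adjusted p of 0.0173, 0.0322 and 0.0457. Ldha, which turns pyruvate into lactate, fell by 0.34 (SE 0.0862, edgeR adjusted p = 0.0381). In ACreb3l2 and AXBP1 none of the 17 was called by edgeR, with 1 and 6 at an unadjusted p under 0.05 and 1 called by DESeq2 in each. Among 14 regulators of mitochondrial biogenesis, Pprc1, a PGC-1 related coactivator, fell in ACreb3l2 by 0.96 on the log2 scale (SE 0.159, edgeR adjusted p = 0.0115). With both transgenes it fell by 1.28 (SE 0.161, edgeR adjusted p = 0.0025). It stood at 796.2 ± 159 normalised counts in WT, 407.6 ± 11 with ACreb3l2, 560.2 ± 19.3 with AXBP1 and 328.8 ± 60.8 with both (SD, n = 2). Ppargc1b, the coactivator PGC-1 beta, fell from 238.6 ± 17.3 to 119 ± 16.4 normalised counts in ACreb3l2/AXBP1 (SD, n = 2, edgeR adjusted p = 0.0186). In AXBP1 none of the 14 was called by edgeR or DESeq2, with 2 at an unadjusted p under 0.05. Of the 17 calls over these lists in ACreb3l2/AXBP1, 2 held without WT replicate 2 and 1 without ACreb3l2/AXBP1 replicate 2. When only these 2 groups were fitted 4 held, with library size only 9, with the replicate block 10, with limma on FPKM 14 and with limma without a filter 2. Pprc1 was called in ACreb3l2 in 1 of the 4 fits that leave out a library and in none of the 3 limma fits.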

How the data were processed

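Transcripts were measured by RNA-seq of ribosome-depleted RNA in 8 libraries of 4 groups, taken from the labels. Per the study's methods, the authors trimmed reads with Trimmomatic, mapped them with Tophat (mm10) and used HTSeq for counting. The deposited counts are whole reads per Ensembl gene, without normalization. The deposited FPKM values were estimated by the authors, with annotation release and strand setting not given in the sources used here. A software list of the study names Cufflinks, which computes FPKM, and another aligner, and its methods name an mRNA kit where the labels give ribosomal depletion.

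Total counts of 28256086 to 37988912 set the precision, and genes with a mean median-ratio normalised count above 20 were tested. All 8 libraries entered 1 edgeR 4.0.16 quasi-likelihood fit (R 4.3.3, robust, TMM factors of 0.913 to 1.10, 1 mean per group), with 6 comparisons and Benjamini-Hochberg adjustment within each. Levels between genes were compared in FPKM, those between libraries in counts scaled by TMM. Replicates were distinct libraries, since the correlation across genes of log2 counts was 0.989 to 0.994 and chi-squared values were 10.7 to 48.5 times the degrees of freedom.

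Named subunits were those called, the lowest and highest of each complex in each comparison with WT, the highest and lowest in WT, the complex IV isoform partners and complex II. Of the pathway lists, called genes were named, at most 3 per list and comparison, plus Ldha and Pdk1. The subunits and lists were chosen with earlier results of these data known. Coordinates and shared 50-base stretches came from GENCODE M21 (mm10), and promoters from RefSeq (GRCm38.p6), which matched 52 of 63 genes. Alternatives were DESeq2 1.42.0, limma 3.58.1 on log2(FPKM + 1) or log2(FPKM + 0.1), other scalings and filters, fewer groups, a replicate block and leaving out each library.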

Additional observations from a re-analysis of the deposited data

How the results depend on the processing

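In ACreb3l2/AXBP1 against WT, 5 subunit genes were called, 6 with median-ratio size factors, 7 with DESeq2 and 5 with filterByExpr. There were 0 with library size only, 11 with no filter on low counts, 1 with limma on log2(FPKM + 1) or log2(FPKM + 0.1), 0 with limma without a filter, 0 when only these 2 groups were fitted, and 0 to 10 without 1 library. With the replicate block 1 was called, Uqcr10, and replicate numbers did not pair the libraries, since the deviations of same-numbered libraries correlated at -0.197 to 0.0887. The other 5 comparisons gave 0 calls under every alternative. With library size only the median log2 change against WT was -0.036 (ACreb3l2) and -0.009 (ACreb3l2/AXBP1), and that of ACreb3l2/AXBP1 was 0.025 against ACreb3l2 and 0.052 against AXBP1, where this scaling moved the median of all genes to 0.08, 0.17, 0.09 and 0.10. The 3 limma fits on FPKM gave medians of -0.30 to -0.29 in AXBP1 against WT, 0.21 in ACreb3l2 against AXBP1, and 0.11 in ACreb3l2/AXBP1 against AXBP1, where the filtered fits moved the median of all genes to -0.16 to -0.13, 0.15 to 0.18 and 0.10 to 0.12. Without 1 library the median ran from -0.18 to -0.06 (ACreb3l2), -0.20 to -0.10 (AXBP1) and -0.25 to -0.10 (ACreb3l2/AXBP1) against WT, and from 0.015 to 0.033, -0.132 to -0.018 and -0.114 to 0.028 in the other 3 in the order of the text. For the named subunits 1671 values of single genes under an alternative kept their call and stayed within 1 SE or remained called, 306 uncalled values moved by more than 1 SE, 38 lost the call, 1 gained it, and none reversed. With 2 libraries per group and a median SE of 0.0921 in ACreb3l2/AXBP1 against WT, small changes of single subunits could go undetected. The mitochondrially encoded subunits, at 0 counts in every library, were not covered. A fit without 1 library leaves its group with 1 library, assumed to vary like the others.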
